A study of Homo sapiens with 12 samples.

Results

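Metallothioneins were followed in HEYA8 cells as the 6 rows MT1E, MT1F, MT1G, MT1M, MT1X and MT2A, taken by gene symbol from a count table of 56269 rows. Of the 6, 5 held enough counts to be tested among 16069 genes, and MT1G did not. HEYA8 is an ovarian cancer cell line with little betaglycan (BG, the type III TGF-β receptor, gene TGFBR3) of its own, and 12 RNA-seq libraries were made from it in 4 groups of 3. The groups carried a control vector, or BG with a glycosaminoglycan attachment serine changed to alanine: S534A (CS-BG, which keeps the other site), S545A (HS-BG) or both changes at once (∆GAG-BG). The study used these libraries to seek regulators of BG shedding, the release of its outer domain from the cell, among matrix and metalloproteinase genes. All 4 groups were human HEYA8 cells in RPMI-1640 with 10% FBS, sampled without added ligand, and each construct was delivered by lentivirus and the cells sorted on dTomato, with no second sorted population of a construct named.

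Metallothioneins are small cysteine-rich proteins that bind zinc, copper and cadmium. Their genes lie side by side on chromosome 16, and zinc switches them on through the zinc-sensing transcription factor MTF-1 at short metal response elements, while glucocorticoids and oxidative stress also raise several of them. In ovarian and other carcinomas they are studied for their link to cisplatin resistance and to the handling of metals.

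Within every group MT2A and MT1E differed more between libraries than their means did between groups. MT2A, the main metallothionein of these cells, ranged from 532 to 1191 CPM (counts relative to the total of a library, scaled by TMM, which corrects for library composition) over the 12 libraries, and MT1E from 34.3 to 131 CPM. The group means of MT2A lay between 739 and 999 CPM. In none of the 6 pairwise comparisons did any of the 5 tested members pass edgeR's quasi-likelihood test, adjusted or unadjusted.

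The 6 genes form a cluster on chromosome 16 of GRCh38, in which the exons of the count table lie at the same span as in GENCODE release 29. MT2A lies at chr16:56608199-56609497, MT1E at chr16:56625475-56627112, MT1M at chr16:56632233-56633986, MT1F at chr16:56657694-56660698 and MT1X at chr16:56682424-56684196, each on the plus strand. MT1G lies at chr16:56666731-56668065 on the minus strand. MT1X shares 321 of its 1773 exon bases with the row RP11-343H19.2 on the same strand, a row with 0 counts in all 12 libraries, and how reads over both were counted is not given in the sources used here. The coding sequences of all 6 members run to 186 bases and were 88.7% to 95.2% identical between members. No stretch of 100 bases of a member's GENCODE transcripts was found in a transcript of another metallothionein gene of that release.

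The 3 coding sequences below, built from GENCODE release 29, belong to the members whose levels moved together most closely across libraries. MT2A is in lower case, and capitals in MT1E and MT1X mark bases that differ from MT2A, which each of them matched at 172 of 186 positions.
MT2A: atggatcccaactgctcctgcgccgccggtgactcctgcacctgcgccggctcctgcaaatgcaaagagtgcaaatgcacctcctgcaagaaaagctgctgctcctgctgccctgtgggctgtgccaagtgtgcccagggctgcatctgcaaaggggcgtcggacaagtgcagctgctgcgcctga
MT1E: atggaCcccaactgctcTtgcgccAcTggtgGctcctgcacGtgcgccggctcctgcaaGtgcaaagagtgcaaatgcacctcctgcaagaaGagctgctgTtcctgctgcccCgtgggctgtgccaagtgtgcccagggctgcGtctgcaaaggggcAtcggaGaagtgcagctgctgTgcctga
MT1X: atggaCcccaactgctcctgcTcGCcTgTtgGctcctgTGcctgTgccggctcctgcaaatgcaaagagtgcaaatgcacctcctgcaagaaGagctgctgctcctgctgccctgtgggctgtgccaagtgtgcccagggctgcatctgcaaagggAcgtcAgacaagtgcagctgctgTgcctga

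The core of the metal response element was searched as TGCACNC and TGCGCNC, both strands, in the 250 bases before each RefSeq start. The promoter table held MT2A and MT1X among the members. MT2A held 7 cores and MT1X 4. Of 35116 promoters of this length 24.8% held at least 1 core, 0.37% held 4 or more and 0.0313% held 7 or more. The stretches below, from the RefSeq table on GRCh38.p14, show them with the cores in capitals. The MT2A stretch precedes the RefSeq start but lies within the MT2A row of the count table, which begins farther 5′. The MT1X stretch is chr16:56682220-56682423, plus strand, with 4 cores, and the MT2A stretch is chr16:56608408-56608437, plus strand, with 2 of its 7.
MT1X upstream: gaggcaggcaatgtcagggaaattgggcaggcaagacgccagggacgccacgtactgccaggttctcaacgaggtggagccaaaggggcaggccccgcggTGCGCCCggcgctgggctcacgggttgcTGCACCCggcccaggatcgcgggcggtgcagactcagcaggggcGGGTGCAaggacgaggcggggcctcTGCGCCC
MT2A before the RefSeq start: cgcggcccGTGTGCAgagccgggTGCGCCC
A match of letters is a description and not a binding site. MT1H, a neighbour of the members, held 8 cores and 0 counts in all 12 libraries.

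**Figure D1:**
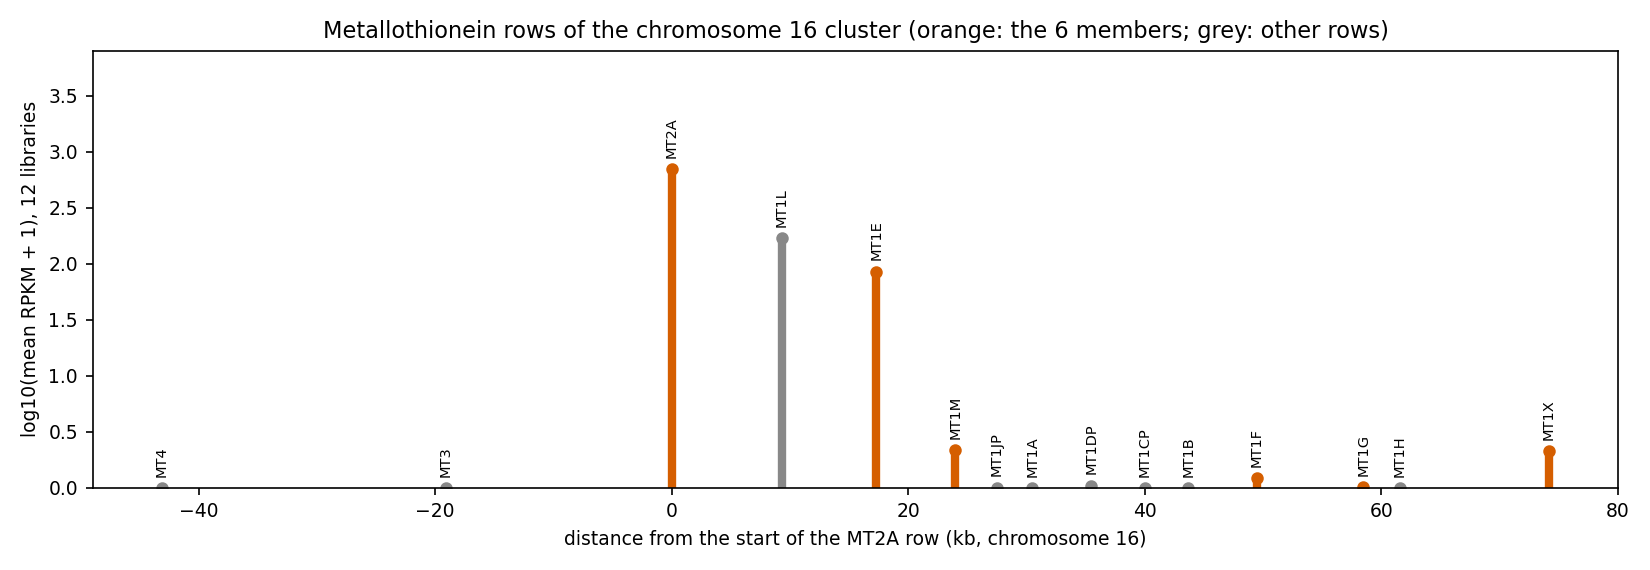
Mean level per length over the 12 libraries (vertical axis, log10 of RPKM + 1) against distance from the start of the MT2A row (horizontal axis, kb) for the metallothionein rows of chromosome 16. MT2A, MT1L and MT1E stand far above the rest, and MT1A, MT1B, MT1H, MT3 and MT4 lie at 0.

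The libraries held 16410001 to 29504297 counts each. The study's design text calls the 3 libraries of a group biological replicates but names no separate cultures, so the p-values measure the spread between these libraries. Libraries 2 and 3 of S545A, of ∆GAG-BG and of the control vector lay close to each other, with a chi-square of 1.4 to 1.95 for each degree of freedom in a comparison of their counts, against 16.5 to 74.8 for the other 9 pairs within a group. TGFBR3, which reads both the cells' own gene and the constructs, was 476, 413 and 457 CPM in S534A and 574, 522 and 520 CPM in S545A. It was 260, 20.3 and 21.4 CPM in the libraries labelled ∆GAG-BG and 15.9, 259 and 259 CPM in those labelled control vector, so that libraries 2 and 3 of these groups went against their labels. Markers of epithelial ovarian carcinoma summed to 2334 to 2967 CPM, with 8 of 10 tested and MUC16 and CDH1 at 0 in all libraries. No leukocyte marker of 6 was tested, and these summed to at most 0.227 CPM. The 4 endothelial markers summed to 175 to 448 CPM, and the 5 fibroblast markers, with DCN and LUM at 0, to 8.71 to 21.5 CPM.

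MT2A supplied 89.3% to 94.0% of the summed CPM of the 6 members. Its levels were 572, 1153 and 1163 CPM in the libraries labelled control vector 1, 2 and 3, and 532, 1102 and 1137 CPM in those labelled ∆GAG-BG. They were 622, 539 and 1057 CPM in S534A and 628, 1176 and 1191 CPM in S545A. Library 1 of every group and library 2 of S534A were thus low, the other 7 libraries were high, and all 4 groups overlapped. The fifth lowest library stood at 628 CPM and the sixth at 1057, a step of 1.68-fold with no library between them. In bulk RNA, fewer cells with much MT2A and less MT2A RNA per cell cannot be told apart.

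Read by replicate number, MT2A lay closer between genotypes for numbers 1 and 3 than for number 2. Over the 4 libraries numbered 1 it ran from 532 to 628 CPM, a ratio of 1.18, and over the 4 numbered 3 from 1057 to 1191 CPM, a ratio of 1.13. Among those numbered 2, S534A stood at 539 CPM and S545A at 1176 CPM, a ratio of 2.18. Library 3 exceeded library 1 by 1.02 on the log2(CPM + 1) scale in the control vector, 1.09 in ∆GAG-BG, 0.92 in S545A and 0.76 in S534A.

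MT1E, the second member by CPM and a metal-inducible isoform, split the libraries in the same way. It read 34.3, 123 and 125 CPM in the libraries labelled control vector and 42.2, 115 and 114 CPM in those labelled ∆GAG-BG. It read 45.6, 36.6 and 122 CPM in S534A and 42.4, 128 and 131 CPM in S545A. The same 5 libraries were low as for MT2A, the groups overlapped, and the step between the fifth and the sixth library was 2.51-fold.

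MT1E spread more widely than MT2A, so that the ratio of MT2A to MT1E changed from library to library. Within a group the highest library exceeded the lowest 2.72- to 3.65-fold for MT1E and 1.90- to 2.14-fold for MT2A. The ratio of MT2A to MT1E was 12.6 to 16.7 in the 5 libraries low in MT2A and 8.70 to 9.93 in the other 7. No test was made of this difference, because the libraries were set apart by the measured levels. The 5 libraries low in MT2A held 22601056 to 29504297 counts and the other 7 held 16410001 to 29267436; the part of depth in the pattern was not tested. The summed levels of 3 of the 4 marker lists were lower in the same 5 libraries, and each sum was carried by few genes. CDH5, at 168 to 431 CPM, made up most of the endothelial sum, and COL1A1, at 7.98 to 17.7 CPM, most of the fibroblast sum. KRT7, KRT8, KRT18 and PAX8 made up nearly all of the epithelial sum. The 10 epithelial markers summed to 2334 to 2614 CPM in the 5 libraries and to 2775 to 2967 CPM in the other 7, the 4 endothelial markers to 175 to 333 and 375 to 448 CPM, and the 5 fibroblast markers to 8.71 to 10.7 and 14.2 to 21.5 CPM. Leukocyte markers summed to at most 0.227 CPM and overlapped between the sets. Of the tested markers, 3 of 8 epithelial, 2 of 4 endothelial and 2 of 2 fibroblast markers had the same 5 libraries lowest as MT2A, and the other tested markers did not. Among all tested genes 5.8% had these 5 libraries lowest. WT1, for example, was highest in S534A library 2, at 8.38 CPM, and in control vector library 1, at 7.51 CPM, and KDR was highest in S534A library 2, at 3.77 CPM. Their part in the metallothionein levels was not tested.

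**Figure D2:**
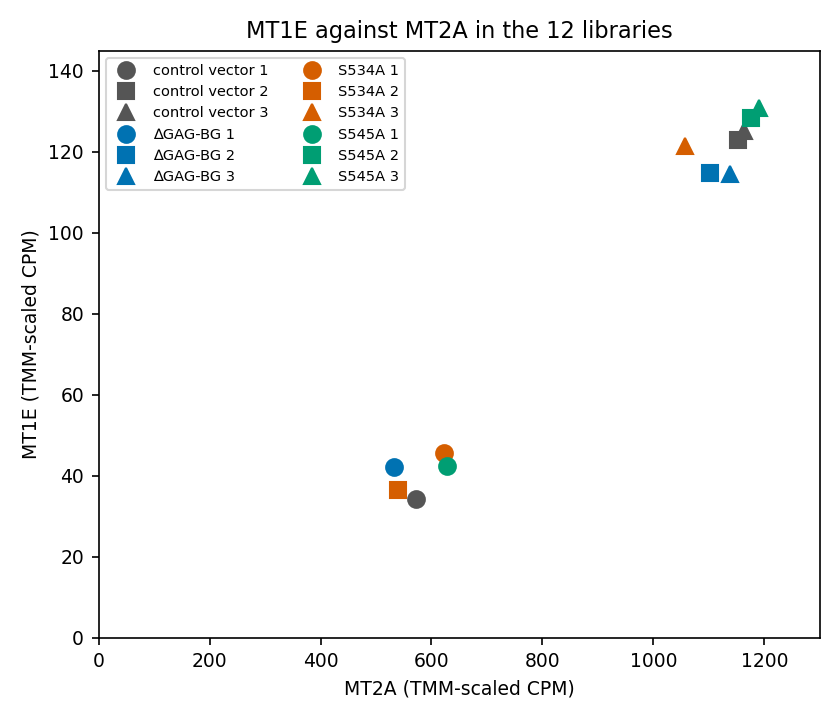
MT1E (vertical axis, TMM-scaled CPM) against MT2A (horizontal axis, TMM-scaled CPM) in the 12 libraries, with colour for the group and shape for the replicate number. Library 1 of each group and S534A library 2 lie at or below 628 CPM of MT2A, and the other 7 lie at or above 1057 CPM.

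MT1X, a broadly expressed isoform, was low in counts, with 22 to 78 counts a library. It read 0.934, 2.12 and 2.27 CPM in the control vector, 0.998, 2.37 and 3.12 CPM in ∆GAG-BG, 1.17, 1.64 and 2.61 CPM in S534A and 1.32, 2.69 and 2.67 CPM in S545A. Its 5 lowest libraries were those of MT2A, and the groups overlapped. Across the 16069 tested genes 5.8% had these same 5 libraries lowest, and 3.94% had them highest. The 932 genes with these 5 lowest include MT2A, MT1E and MT1X, and the 5 were set by the levels of MT2A itself.

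MT1M, an isoform with few counts here, and MT1F, another of the cluster's isoforms, did not have the same 5 libraries lowest as MT2A. MT1M read 1.00, 1.37 and 0.861 CPM in the control vector, 0.544, 2.46 and 1.54 CPM in ∆GAG-BG, 0.320, 0.334 and 1.94 CPM in S534A and 0.465, 1.27 and 1.06 CPM in S545A, from 9 to 53 counts a library. Its 5 lowest libraries included control vector library 3 and left out control vector library 1. MT1F read 0.173, 0.990 and 0.274 CPM in the control vector, 0.227, 0.465 and 0.406 CPM in ∆GAG-BG, 0.0711, 0.467 and 0.303 CPM in S534A and 0.310, 0.637 and 0.513 CPM in S545A. These rest on 2 to 21 counts, and 3 of its 5 lowest libraries were shared with MT2A. For both isoforms all 4 groups overlapped. MT1G had 1 count in S545A library 3 and 1 in control vector library 2 and 0 in the other 10, where a count of 0 allows up to 3 counts, or 0.10 to 0.18 CPM over all libraries, for counting error alone.

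**Figure D3:**
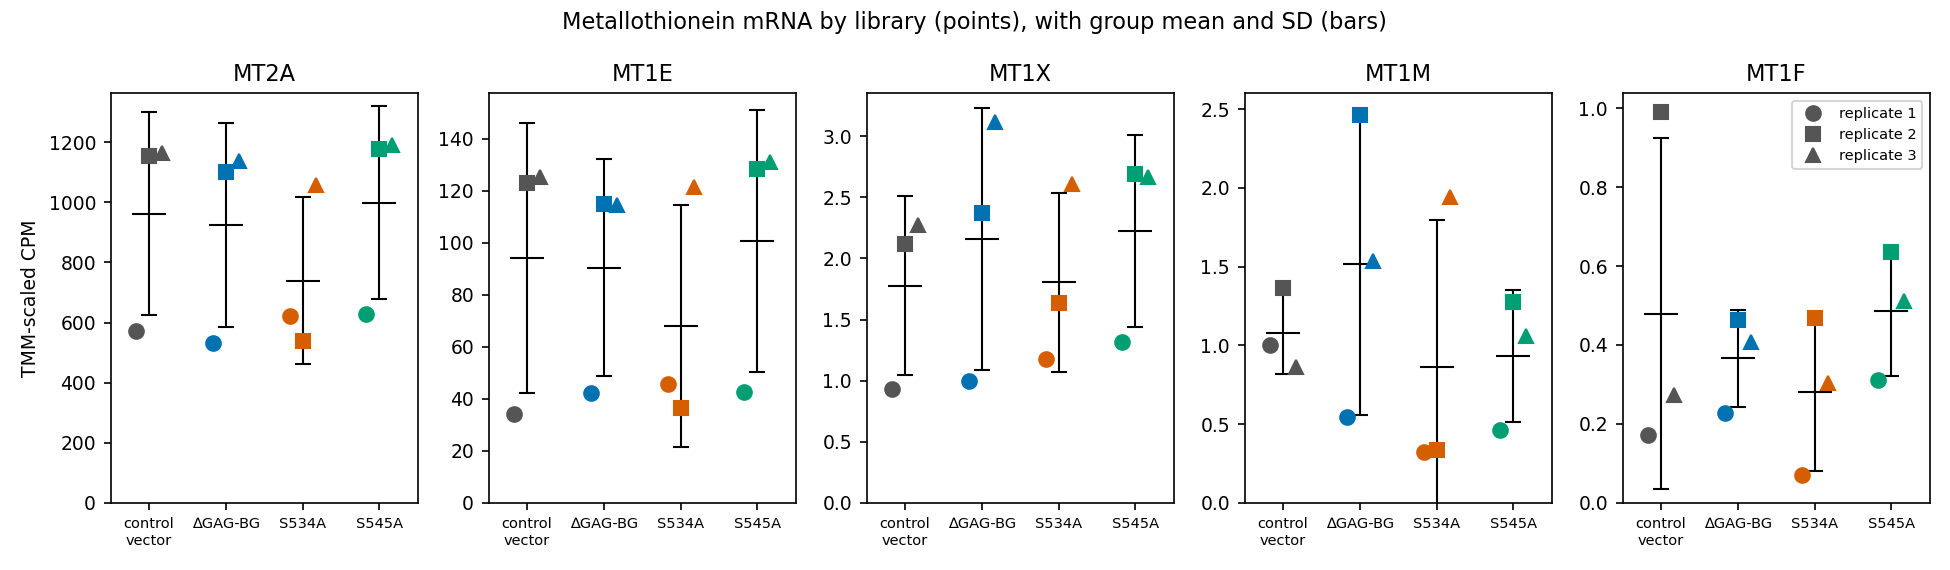
TMM-scaled CPM (vertical axes) of the 5 tested members in the 4 groups (horizontal axes), with 1 point per library shaped by replicate number, and bars for the group mean and SD of 3 libraries; the bar of MT1M in S534A is cut off at 0. Circles (library 1) are the lowest points of MT2A and MT1E in all groups but S534A, where library 2 is lowest.

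Per length, MT2A was the most abundant metallothionein in all 12 libraries. Its mean was 698 CPM per kilobase of exon (RPKM), with a range of 410 to 917 RPKM. Next came MT1L, annotated as a transcribed pseudogene between MT2A and MT1E, with a mean of 168 RPKM, and then MT1E with 83.9 RPKM. MT1L exceeded MT1E per length in 12 of 12 libraries. MT1M at a mean of 1.16 RPKM and MT1X at 1.12 RPKM could not be ordered, since MT1M was the higher in 5 of 12 libraries, and MT1F was at 0.213 RPKM. The lengths are those of the table, whose MT2A and MT1X rows are 1 unbroken block each with no intron left out.

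Of the 14 other metallothionein rows in the table, MT1L and MT2P1 were tested. MT1A, MT1B, MT1H, MT1HL1, MT1CP, MT3 and MT4 were at 0 counts in all 12 libraries, and the other 5 rows held at most 3 counts a library. MT1L spread less than its neighbours, with a range of 47.0 to 79.4 CPM, and its highest library was S534A library 2, a low library for MT2A and MT1E. MT2P1, a processed copy on chromosome 4 whose reads could be confused with those of MT2A, ranged from 0.133 to 0.923 CPM. It was lower in S534A than in the control vector at an unadjusted edgeR p of 0.0188, with a log2 fold change of -1.43 ± 0.527 (SE, n = 3 against 3) and an adjusted p of 0.871. This rests on 4 to 11 counts a library in S534A and 15 to 21 in the control vector, whose libraries 2 and 3 went against their labels. In this comparison 3.45% of all tested genes had an unadjusted edgeR p under 0.05.

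**Figure D4:**
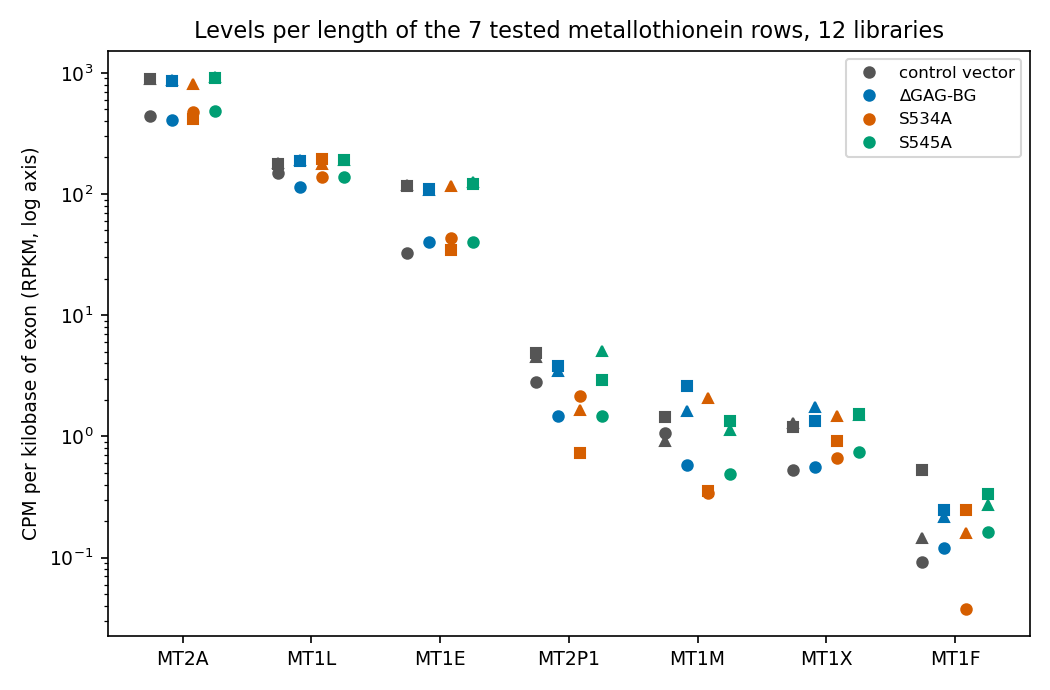
CPM per kilobase of exon (vertical axis, log scale) of the 7 tested metallothionein rows (horizontal axis) in the 12 libraries, coloured by group and shaped by replicate number. MT2A lies above MT1L and MT1L above MT1E in 12 of 12 libraries, and the range of MT1L is narrower than those of MT2A and MT1E.

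Between groups, the order of MT2A was S545A at 999 ± 321 CPM, control vector at 963 ± 338, ∆GAG-BG at 924 ± 340 and S534A at 739 ± 278 (mean ± SD, n = 3 each). For MT1E it was S545A at 101 ± 50.4 CPM, control vector at 94.1 ± 51.8, ∆GAG-BG at 90.5 ± 41.8 and S534A at 67.9 ± 46.7 CPM. No neighbours in either order differed beyond their spread.

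The loss of the second attachment site was read by setting each single change against ∆GAG-BG. For S534A against ∆GAG-BG, 0 of 5 members passed at an unadjusted edgeR p under 0.05, where 2.99% of all tested genes did, and 0 of 5 had groups that did not overlap, against 5.66% of all. MT2A stood 0.32 lower in S534A on the log2 scale (log2 fold change -0.32 ± 0.379 SE, 95% interval -1.15 to 0.51, edgeR adjusted p = 0.892, exact permutation p = 0.6). The lowest value among the members was that of MT1M at -0.97 ± 0.689, with an edgeR adjusted p of 0.89. The median of the 5 members was -0.37, beside -0.0027 over all tested genes. The comparison rests on libraries that went against their labels. With libraries 2 and 3 of ∆GAG-BG and of the control vector left out, MT2A was 0.47 and MT1E 0.68 higher in S534A on the log2 scale, and neither passed. With library 1 of these groups left out, MT2A was at -0.60 and MT1E at -0.76, and again neither passed. The sign of this comparison was thus that of the ∆GAG-BG libraries kept.

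For S545A against ∆GAG-BG, 0 of 5 members passed at an unadjusted edgeR p under 0.05 beside 1.1% of all genes, and 0 of 5 did not overlap beside 5.05%. MT2A differed by 0.11 ± 0.379 on the log2 scale (95% interval -0.72 to 0.94, edgeR adjusted p = 1). MT1E differed by 0.15 ± 0.614. Without libraries 2 and 3 of the ∆GAG-BG and control vector groups MT2A was at 0.90 and MT1E at 1.25. Without library 1 of those groups they were at -0.16 and -0.18, and neither passed in that fit. S545A kept all its libraries in both fits. Library 1 was low in MT2A and MT1E in every group, so the libraries left out set the direction, and nothing is concluded from it.

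The libraries labelled ∆GAG-BG and control vector gave nearly equal means of MT2A and MT1E, and less equal ones of the sparse isoforms. Here 0 of 5 members passed at an unadjusted edgeR p under 0.05 beside 0.871% of all genes, and 0 of 5 did not overlap beside 4.87%. MT2A differed by -0.06 ± 0.379 (95% interval -0.89 to 0.77) and MT1E by -0.06 ± 0.614 (95% interval -1.40 to 1.29) on the log2 scale. MT1M was at 0.50 ± 0.653, MT1X at 0.30 ± 0.462 and MT1F at -0.31 ± 0.678. Without libraries 2 and 3 of both groups, where 1 library a group is left and is taken to vary like the others, MT2A was at -0.12, and without library 1 at -0.05.

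Against the control vector, S534A showed 0 of 5 members at an unadjusted edgeR p under 0.05 beside 3.45% of all genes, and 0 of 5 without overlap beside 7.65%. MT2A was at -0.38 ± 0.380 (95% interval -1.21 to 0.45, edgeR adjusted p = 0.871), MT1E at -0.48 ± 0.617 and MT1F, on its few counts, at -0.68 ± 0.694. The median of the members was -0.47, beside 0.0078 over all genes. MT2A turned to 0.35 and MT1E to 0.96 without libraries 2 and 3 of ∆GAG-BG and the control vector. They were at -0.65 and -0.88 without library 1 of those groups. S534A kept all its libraries in both fits, so the direction followed the control vector libraries kept. For S545A against the control vector, 0 of 5 passed beside 1.05% and 0 of 5 did not overlap beside 8.82%. Unpaired, MT2A was at 0.05 ± 0.379 (95% interval -0.78 to 0.88) and MT1E at 0.10 ± 0.613. Here same-numbered libraries were taken as pairs. MT2A read 628, 1176 and 1191 CPM in S545A and 572, 1153 and 1163 CPM in the control vector. MT1E and MT1X were likewise higher in S545A in each pair, while MT1F and MT1M were not. The share of all tested genes higher in each pair was not computed, so nothing about the members is concluded from this. With the replicate number as a block over all 12 libraries, MT2A was at 0.06, MT1E at 0.13 and MT1X at 0.35, each at an edgeR adjusted p of 1. That fit puts the same replicate effect on all 4 groups, so it is no paired test of S545A and the control vector alone. Libraries 2 and 3 lay close to each other in each of these groups, and those of the control vector went against their labels. In the unpaired fit MT2A and MT1E were at 0.78 and 1.53 without libraries 2 and 3 of ∆GAG-BG and the control vector. They were at -0.21 and -0.30 without library 1 of those groups. S545A kept all its libraries, and library 1 was low in both genes, so the libraries left out set the direction. All of these comparisons share the control or the ∆GAG-BG libraries.

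The folds of S545A against S534A do not rest on those libraries, while their errors and p-values come from the spread within all 4 groups. MT2A was 0.43 ± 0.380 higher in S545A (95% interval -0.40 to 1.27, edgeR unadjusted p = 0.277, adjusted p = 0.732, exact permutation p = 0.2, where the smallest p that 3 against 3 allows is 0.1). MT1E was at 0.57 ± 0.617, MT1F at 0.76 ± 0.685, MT1X at 0.34 ± 0.460 and MT1M at 0.26 ± 0.712. Here 0 of 5 members passed at an unadjusted edgeR p under 0.05 beside 4.78% of all genes, and 0 of 5 did not overlap beside 10.1%. The median of the members was 0.43, beside -0.00024 over all genes, and 1 library decided its size: MT2A was at 0.78 without S534A library 3 and at 0.25 without S534A library 2. Over the 4 groups at once, edgeR's joint test gave the members unadjusted p-values of 0.544 to 0.814, with 0 of 5 under 0.05 beside 1.55% of all genes. After adjustment 0% of the tested genes passed in each of the 6 pairwise comparisons and 0.00622% in the joint test.

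MT1M was the only member to pass at an unadjusted p under 0.05 when 1 library was left out. All 5 tested members changed sign in at least 1 comparison on leaving out 1 library. Without S534A library 3, its highest S534A value, it was lower in S534A than in ∆GAG-BG at an unadjusted edgeR p of 0.0042, with a log2 fold change of -2.19. It was lower than in the control vector at an unadjusted edgeR p of 0.0193, with -1.69, and S545A stood above S534A by 1.48 at an unadjusted edgeR p of 0.0374. None of the 3 passed after adjustment, with edgeR adjusted p-values of 0.453, 0.417 and 0.307. These values rest on the libraries S534A 1 and 2, with 0.320 and 0.334 CPM. With all libraries kept, 2.99%, 3.45% and 4.78% of all tested genes had an unadjusted edgeR p under 0.05 in these comparisons. The shares without S534A library 3 were not computed, so the MT1M values cannot be set against them.

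**Figure D5:**
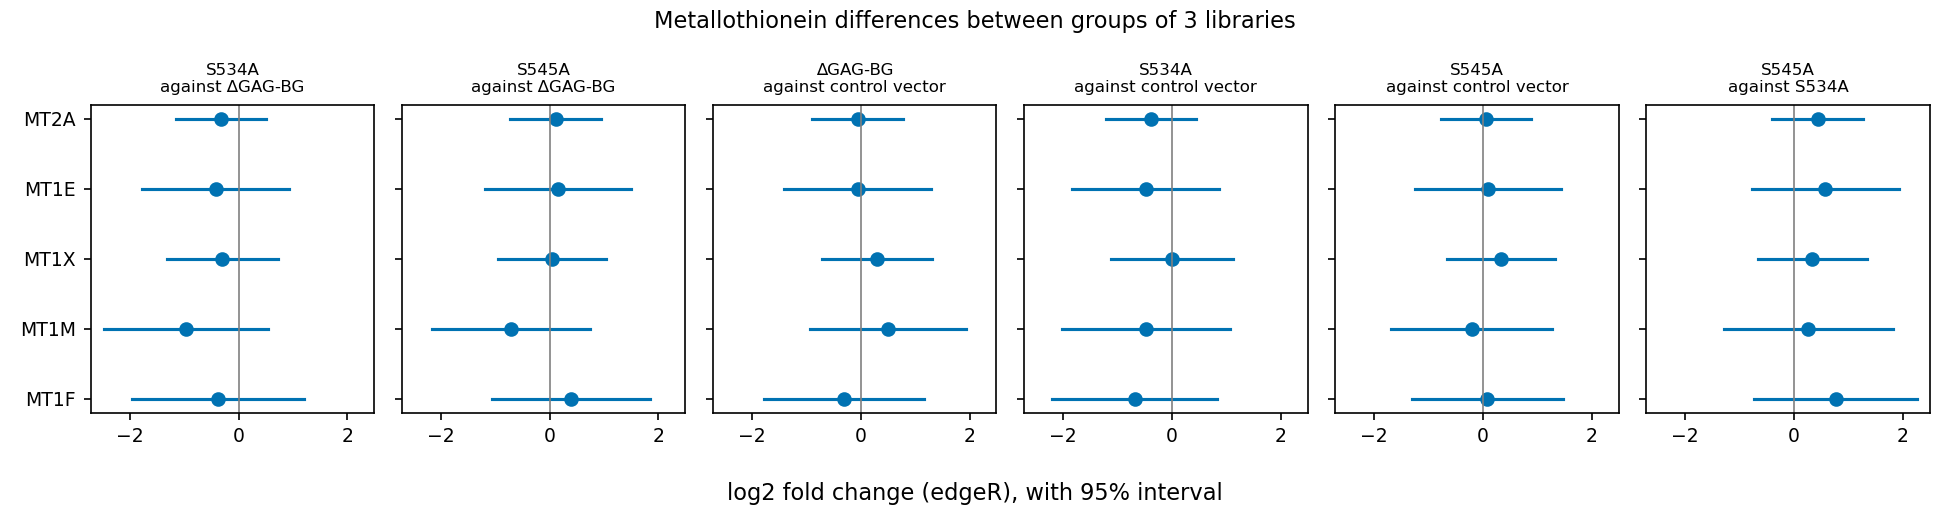
Log2 fold change (horizontal axes, edgeR) with its 95% interval for the 5 tested members (vertical axis) in the 6 comparisons of groups of 3 libraries. All 30 intervals cross 0.

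Of the genes that sense, move and answer to metals, none passed after adjustment in any comparison. MTF1, the gene of the zinc sensor, ranged from 21.6 to 29.2 CPM and did not follow the members. SLC30A1, a zinc exporter of the plasma membrane and a known target of MTF-1, had the same 5 libraries lowest. It read 12.9, 35.4 and 35.6 CPM in the control vector, 19.1, 34.5 and 33.3 CPM in ∆GAG-BG, 15.96, 12.5 and 34.7 CPM in S534A and 15.8, 43.3 and 41.3 CPM in S545A. The step from the fifth lowest library to the sixth was 1.74-fold, and the groups overlapped. Its largest difference was 0.68 ± 0.496 on the log2 scale, S545A above S534A, at an edgeR adjusted p of 0.703. Of the 18 tested genes of zinc sensing and transport, SLC30A1 alone had these 5 libraries lowest, a share near the 5.8% of all tested genes.

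A few pathway genes passed at an unadjusted edgeR p under 0.05, and none after adjustment. Of all tested genes 2.99% did so in S534A against ∆GAG-BG, 0.871% in ∆GAG-BG against the control vector, 3.45% in S534A against the control vector and 4.78% in S545A against S534A. The folds of the first 3 of these comparisons rest on libraries that went against their labels. Of the 18 zinc genes these were 1 in S534A against ∆GAG-BG, the zinc importer SLC39A14 (-0.74 ± 0.335, adjusted p = 0.89), and 1 in S545A against S534A, the importer SLC39A8 (-0.43 ± 0.195, adjusted p = 0.702). SLC39A14 read 359, 132 and 140 CPM in ∆GAG-BG and 152, 84.9 and 141 CPM in S534A, where ∆GAG-BG library 1 alone was high and the groups overlapped. Of 9 copper genes there were 2, both lower in S534A than in the control vector. SLC31A2, a copper transporter, was at -0.86 ± 0.350 (adjusted p = 0.871). It rests on few counts, 6 to 8 a library in S534A and 9 to 20 in the control vector. ATP7B, a copper exporting ATPase, was at -0.50 ± 0.217 (adjusted p = 0.871). Of 9 genes of the glucocorticoid response there was HSD11B1, which regenerates active cortisol, at -0.96 ± 0.193 in S534A against ∆GAG-BG (adjusted p = 0.89), 0.55 ± 0.190 in ∆GAG-BG against the control vector (adjusted p = 1) and 0.58 ± 0.193 in S545A against S534A (adjusted p = 0.702). It read 18.6, 21.1 and 18.0 CPM in the libraries labelled ∆GAG-BG and 18.2, 10.1 and 11.1 CPM in those labelled control vector, so its higher mean in ∆GAG-BG rests on libraries 2 and 3, which went against their labels. Of 11 genes of oxidative and heavy metal stress there was 1 in S534A against the control vector, SOD2, and there were 3 in S545A against S534A, all lower in S545A: the heat shock genes HSPA1A at -1.13 ± 0.478 (adjusted p = 0.702) and HSPA1B at -1.18 ± 0.515 (adjusted p = 0.702), near-identical copies whose reads could be split between them, and HMOX1, heme oxygenase 1, at -0.34 ± 0.148 (adjusted p = 0.702). HSPA1A read 20.3, 30.8 and 13.1 CPM in S534A and 16.4, 6.91 and 6.18 CPM in S545A. HSPA1B read 20.9, 42.2 and 12.1 CPM in S534A and 18.5, 7.50 and 7.31 CPM in S545A. Both were highest in S534A library 2, and the groups overlapped. SOD2, the mitochondrial superoxide dismutase, was higher in S534A and was named after its values were seen. Its mean was 209 CPM in S534A and 91.1 CPM in the control vector (edgeR adjusted p = 0.871). It read 99.1, 443 and 85.9 CPM in S534A, where library 2 alone was high.

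The 5 genes outside the family whose log2(CPM + 1) ran closest to that of MT2A over the 12 libraries were MIR137HG (Pearson r = 0.98, 1.60 to 5.51 CPM), ATP1B1 (r = 0.98, 57.5 to 110.6 CPM), MGLL (r = 0.98, 309 to 519 CPM), P3H2 (r = 0.98, 39.1 to 82.3 CPM) and ADRA1B (r = 0.97, 0.349 to 2.29 CPM). The same 5 ran closest to the sum of the 6 members. ATP1B1 is a subunit of the sodium pump and MGLL a monoglyceride lipase. On the same measure MT1E ran with MT2A at r = 0.99, MT1X at 0.91, MT1M at 0.75 and MT1F at 0.57. These r are descriptions over libraries that fall into 2 separate clumps and share their depth and composition.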

How the data were processed

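The 12 HEYA8 RNA-seq libraries were grouped by their genotype labels, 3 to a group, at 16410001 to 29504297 counts each. The authors deposited 1 table of raw counts per gene. The submitters' processing notes name FastQC, Trim Galore 0.4.5, STAR 2.4, SAMtools 1.2 and featureCounts, and the mouse builds mm10 and GRCm38, while the table's symbols and coordinates are human and match GRCh38; whether reads were counted by strand is not given in the sources used here. The filter was filterByExpr at a minimum count of 10. TMM gave the scaling, and the robust quasi-likelihood fit of edgeR 4.0.16 in R 4.3.3, 1 fit for all 4 groups, gave the tests, adjusted by Benjamini-Hochberg over 16069 genes. A gene was called at a p under 0.05. The common biological coefficient of variation was 0.163. CPM per kilobase used the table's exon lengths. Exact permutation tests were two-sided. DESeq2 1.42.0, limma-voom (limma 3.58.1), other filters, scalings and omitted libraries were tried as alternatives. The edgeR and DESeq2 scripts were tested on simulated data. The members and the gene lists were chosen with earlier results of these data known. Named by rule were the members, MTF1, SLC30A1, at most 3 genes of each pathway list with the smallest unadjusted p under 0.05, and the 5 genes closest to MT2A. The replicate numbers were taken as pairs for S545A and the control vector, and not in the other comparisons. Deviations of same-numbered libraries of these groups correlated at 0.732, 0.48 and 0.481 over genes. Such correlations do not settle which numbers mark pairs, and no paired test of these groups alone was made.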

Additional observations from a re-analysis of the deposited data

How the results depend on the processing

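Of 485 member fold changes computed under 23 alternatives, 423 kept their direction and their side of the threshold and 62 reversed, 37 of them by leaving out 1 library. None passed after adjustment in any alternative, where the lowest adjusted p of a member was 0.307, and 3 passed unadjusted, all of MT1M without S534A library 3, so that 0 to 1 member had an unadjusted p under 0.05 in S534A against ∆GAG-BG, in S534A against the control vector, in S545A against S534A and in the joint test when 1 library was left out. The share of all tested genes with an unadjusted p under 0.05 was not computed for the fits without 1 library. Leaving out 1 library at a time gave these ranges of log2 fold changes. In S534A against ∆GAG-BG, MT1F ran from -1.15 to 0.13 and MT1X from -0.64 to 0.067. In S545A against ∆GAG-BG, MT1E ran from -0.18 to 0.53, MT1X from -0.30 to 0.40 and MT2A from -0.16 to 0.36. In ∆GAG-BG against the control vector, MT1E ran from -0.46 to 0.28, MT1F from -0.74 to 0.71, MT1M from -0.046 to 0.89, MT1X from -0.068 to 0.63 and MT2A from -0.33 to 0.21. In S534A against the control vector, MT1F ran from -1.45 to 0.33 and MT1X from -0.32 to 0.24. In S545A against the control vector, MT1E ran from -0.30 to 0.47, MT1F from -0.35 to 1.10, MT1M from -0.47 to 0.12 and MT2A from -0.21 to 0.30. In S545A against S534A, MT1M ran from -0.16 to 1.48. The number of genes past the adjusted threshold in the joint test was 0 or 1 when 1 library was left out, and 0 with a minimum of 10 counts in every library and with libraries 2 and 3 summed. DESeq2 called 2 genes in the joint test, 1 between S545A and S534A, 2 between S534A and the control vector and 5 between S534A and ∆GAG-BG; no filter on low counts gave 1 gene in each of these pairwise comparisons, and limma-voom also 1 in each. MT1X in S534A against the control vector, at 0.00049 in the main test, was at -0.0031 with RLE size factors, -0.0060 with no filter and -0.0034 with 10 counts in every library. With limma-voom, MT1E and MT1F in ∆GAG-BG against the control vector were at 0.029 and 0.033. The cause was not tested.

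The next fits left libraries out of ∆GAG-BG and the control vector only. S534A and S545A kept all theirs, with a library 1 low in MT2A and MT1E. In their comparisons the libraries kept thus set the direction of these genes. Without libraries 2 and 3 of ∆GAG-BG and the control vector, directions reversed as follows. In S534A against ∆GAG-BG MT1E was at 0.68, MT1F was at 0.30, MT1M was at 0.51, MT1X was at 0.82 and MT2A was at 0.47. In S545A against ∆GAG-BG MT1M was at 0.76. In ∆GAG-BG against the control vector MT1E was at 0.28, MT1F was at 0.36 and MT1M was at -0.89. In S534A against the control vector MT1E was at 0.96, MT1F was at 0.66 and MT2A was at 0.35. The genes past the adjusted threshold were then 1 for S545A and the control vector, 1 for S534A and the control vector, 1 for ∆GAG-BG and the control vector and 9 for S534A and ∆GAG-BG. Without library 1 of those groups, directions reversed as follows. In S545A against ∆GAG-BG MT1E was at -0.18, MT1X was at -0.30 and MT2A was at -0.16. In S534A against the control vector MT1X was at -0.33. In S545A against the control vector MT1E was at -0.30, MT1F was at -0.35 and MT2A was at -0.21. The genes past the adjusted threshold were then 1 for S545A and the control vector, 1 for ∆GAG-BG and the control vector, 1 for S545A and ∆GAG-BG and 1 for S534A and ∆GAG-BG.

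The replicate block, fitted over all 12 libraries, turned MT1E in ∆GAG-BG against the control vector to 0.0065 and changed no other direction and no call. For S545A against the control vector MT2A stayed at 0.06 in that fit, with an edgeR adjusted p of 1. In the other comparisons same-numbered libraries deviated together with correlations between -0.312 and 0.544, and the numbers were not taken as pairs. The highest, 0.544 for number 3 of S545A and S534A, exceeded the 0.48 and 0.481 of S545A and the control vector. These correlations therefore do not settle which numbers mark pairs.

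Depth limits MT1F, MT1M and MT1X, at 2 to 78 counts a library, and MT1G was not tested. With 3 libraries a group, 2 of them close to each other in 3 of the groups, the 95% interval of MT2A between S545A and S534A ran from -0.40 to 1.27, and that of MT1E from -0.78 to 1.93.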

Other observations

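Some stress and signalling genes outside the family had the same 5 libraries at one end of their range as MT2A. They were chosen after their values were seen, and no test was made. DUSP1, an early-response phosphatase of the glucocorticoid list, was lowest in those 5, with 186, 218 and 357 CPM in S534A, 172, 435 and 429 CPM in S545A, 189, 340 and 328 CPM in ∆GAG-BG and 164, 348 and 345 CPM in the control vector. The other 8 tested genes of that list did not have these 5 libraries lowest. DNAJB1, a co-chaperone of the heat shock response, was highest in those 5, with 98.2, 120, 78.0 CPM in S534A, 93.5, 63.6 and 61.4 CPM in S545A, 84.9, 83.0 and 82.1 CPM in ∆GAG-BG and 113, 64.5 and 68.5 CPM in the control vector. The margin of DNAJB1 was narrow, at 84.9 CPM in ∆GAG-BG library 1 and 83.0 CPM in library 2. HSPA1B also had the same 5 libraries highest by a narrow margin, at 13.56 CPM in ∆GAG-BG library 1 and 13.50 CPM in library 3. Its near-identical copy HSPA1A did not, at 11.7, 13.4 and 12.1 CPM in ∆GAG-BG. DNAJB1 and HSPA1B were 2 of the 11 tested genes of the stress list. SLC39A10, a zinc importer and 1 of 18 tested zinc genes, also had them highest, with 172, 177 and 110 CPM in S534A and 203, 116 and 114 CPM in the control vector. Of all tested genes 5.8% had these 5 libraries lowest and 3.94% highest. None of the 9 copper genes had these 5 libraries at either end.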
